A study of Mus musculus with 6 samples.

Results

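The genes of the cytosolic ribosome's proteins were examined in subcutaneous adipose tissue of wild type and mitoNEET transgenic mice. Members were chosen by symbol: every probe whose platform symbol is Rpl or Rps followed by a number, with at most an a, l or x behind it, together with Rpsa, Rplp0, Rplp1 and Rplp2. The rule found 59 genes, read by 88 probes, of 19057 named genes on the array. A gene with several probes is given by the one of highest 6-array mean. The data are single-channel Illumina bead arrays of wild type (3 arrays) and MitoNEET-transgenic (3 arrays) tissue. All mice were male, of strain FVB and aged 12 weeks, and the tissue was frozen after isoflurane anaesthesia in the light phase. MitoNEET, the product of Cisd1, binds iron-sulfur clusters on the outer face of mitochondria. The sample descriptions of all 6 arrays, wild type included, begin with aP2, an older name of the adipocyte gene Fabp4, and the labels used here do not say which promoter drives the transgene. Nor do they state separate animals for the arrays, and p-values here thus reflect a spread between arrays that may be technical.

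The cytosolic ribosome is built from a small subunit, which decodes messenger RNA, and a large subunit, which joins amino acids. Its proteins are made in matched amounts, and most of their messenger RNAs begin with a run of pyrimidines, the terminal oligopyrimidine (TOP) tract, through which the kinase mTOR controls their translation. Ribosomal protein messenger RNA is abundant in every cell type and makes up a particularly large share of the RNA of resting lymphocytes, whereas a mature fat cell devotes much of its RNA to lipid metabolism.

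Most ribosomal protein genes read lower in transgenic tissue. Of 59 members, 52 lay above background and were tested, and 50 of these had a lower mean in transgenic than in wild type tissue. With a threshold of 0.05 on limma's adjusted p, 20 fell, 1 rose and 31 did not pass. In the same fit 8.11% of all 15237 features fell and 4.96% rose, against 38.5% of tested members that fell. The median log2 change (transgenic minus wild type) was −0.33 over the members, or 1.26-fold lower, beside 0.02 over all features. In 39 of 52 members every transgenic array lay below every wild type array, a separation found in 17.2% of all features. In 1 member every transgenic array lay above, against 18.3% of all features, and in 12 the groups overlapped. Most members have bright probes, so the same counts were taken over features with a mean intensity of 1000 or more: 18 of 43 such members fell, beside 8.22% of all such features, and 34 were separated, beside 18.1%.

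The number of genes that passed rested on particular arrays and on the processing, while the median moved less. Without transgenic array 2 no member and none of the 15237 features (0%) passed in limma, although 37 members and 3657 features had an unadjusted p under 0.05. Without wild type array 2, 1 member fell (1.82% of all features), 4 fell without transgenic array 1 (2.74%), and 13 without transgenic array 3 (5.74%). Over the 6 fits that leave out 1 array, the median log2 change of the members ran from −0.37 to −0.28. Each of the 20 genes that fell lost its call in 1 to 5 of these 6 fits. Centring each array on its median, which moved the features called to 7.15% lower and 6.81% higher, left 18 members lower. With all 6 arrays and the background level subtracted, no member passed in limma (1.13% of all features fell), with 33 members at an unadjusted p under 0.05 and a median log2 change of −0.34. With the score of skeletal muscle markers as a covariate, 2 members fell (2.39%), and the median was −0.29.

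**Figure D1:**
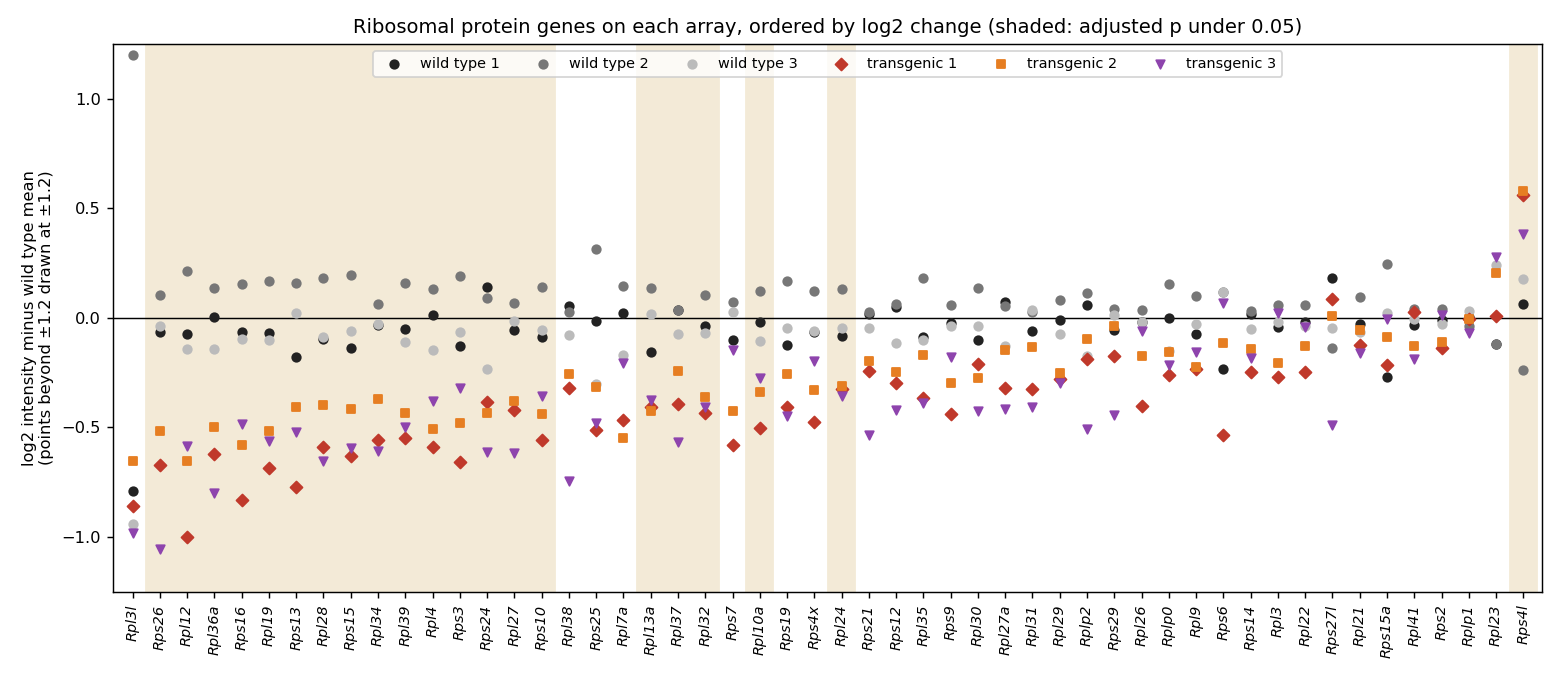
Log2 intensity of each tested ribosomal protein gene on each of the 6 arrays, minus that gene's wild type mean; genes are ordered along the horizontal axis by log2 change and those with an adjusted p under 0.05 are shaded. The transgenic points lie below the wild type points in 39 of 52 genes; Rpl3l is high on wild type array 2 and Rps4l lies above 0 on all 3 transgenic arrays.

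The start sites of the members were read from RefSeq promoters of the mouse assembly GRCm38.p6, which list 48 of the 59 members by Entrez Gene identifier. A run of at least 8 pyrimidines (C or T, on the gene's own strand) was searched for in the 30 bases from 15 before to 15 after each listed start, and a gene with several starts was counted if any of them held it. The run was found in 20 of 48 members (41.7%), in 13.9% of all 27025 genes of the table and in 13.4% of 67 mitochondrial ribosomal protein genes. The following windows show it for members of large falls (Rps26, Rpl28 and Rpl34). Rpl34 has another listed start, not shown, that also holds a run. Windows are also given for members whose listed starts do not hold it (Rpl12 and Rps16, which fell, and Rpl23, which did not). Capitals mark the run, and each sequence runs 5′ to 3′ on the gene's strand.
Rps26 (chr10:128626492-128626521, minus strand): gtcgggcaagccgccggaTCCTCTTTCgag
Rpl34 (chr3:130730323-130730352, minus strand): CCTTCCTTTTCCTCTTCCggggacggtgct
Rpl28 (chr7:4792950-4792979, plus strand): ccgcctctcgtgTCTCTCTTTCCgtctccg
Rpl12 (chr2:32961697-32961726, plus strand): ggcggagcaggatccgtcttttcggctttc
Rps16 (chr7:28350674-28350703, plus strand): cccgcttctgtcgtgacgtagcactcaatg
Rpl23 (chr11:97782425-97782454, minus strand): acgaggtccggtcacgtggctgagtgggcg

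Among tested members, 9 of 19 with the run fell, with a median log2 change of −0.41. Of 24 without it, 10 fell, with a median of −0.37. Over all features 8.11% fell, a share that was not taken separately for genes that hold the run. Whether members with and without the run differ was not tested. A listed start can differ from the start used in this tissue, so a window without the run says only that these letters are not there.

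The hexamer CGGAAG, the core of sites bound by ETS factors, was searched for on both strands in the 250 bases before each start, where it may overlap the pyrimidine run by its reverse form CTTCCG. It was present in 26 of 48 members (54.2%), in 15.3% of all genes of the table and in 46.3% of mitochondrial ribosomal protein genes. Of 24 tested members that hold it 10 fell, and of 19 without it 9 fell, beside 8.11% of all features. Whether members with and without the hexamer differ was not tested. The hexamer, in capitals, and its surroundings are shown for Rpl12, Rps16 and Rpl34, genes of large fall. A match of letters is not evidence of a bound site.
Rpl12 (chr2:32961530-32961559, plus strand): gaacatttacccCTTCCGaatcccgagctc
Rps16 (chr7:28350518-28350547, plus strand): ggccagccccatCTTCCGagttctggacgg
Rpl34 (chr3:130730495-130730524, minus strand): cgcacccgcctaCGGAAGccgcactacaca

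Among small subunit genes 7 of 21 tested fell and 1 rose, beside 8.11% and 4.96% of all features. Their median log2 change was −0.33. Rps26, whose protein lines the channel by which messenger RNA leaves the ribosome and whose start window holds a pyrimidine run, read 7132, 8017 and 7271 on wild type arrays 1, 2 and 3 and 4687, 5214 and 3591 on transgenic arrays 1, 2 and 3. The highest transgenic value thus lay well below the lowest wild type value, and transgenic array 3 was the lowest of all. Its mean went from 7473 ± 476 (SD, n = 3) to 4497 ± 828 (SD, n = 3), a 1.68-fold fall (log2 −0.75, SE 0.14, adjusted p = 0.0179). Rps16, whose tail touches the tRNA at the decoding centre, read 6933, 8076 and 6787 in wild type and 4066, 4849 and 5184 in transgenic tissue, with transgenic array 1 the lowest. It fell 1.55-fold (log2 −0.63, SE 0.12, adjusted p = 0.0183). Rps13 and Rps15 fell 1.48-fold and 1.46-fold. Rps3, a protein of the messenger RNA entry site that also takes part in DNA repair, read 5619, 7025 and 5890.2 in wild type and 3896, 4412 and 4932 in transgenic tissue. It fell 1.4-fold (log2 −0.49, SE 0.12, adjusted p = 0.0368), and again transgenic array 1 was the lowest. Rps10 and Rps24, both mutated in some patients with Diamond-Blackfan anaemia, fell by 0.45 and 0.48 on the log2 scale.

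The other small subunit genes did not pass. Rps19, the gene most often mutated in Diamond-Blackfan anaemia in humans, read 13763, 16867 and 14513 in wild type and 11314, 12538 and 10985 in transgenic tissue, without overlap between groups, and missed the threshold narrowly (log2 −0.37, SE 0.10, adjusted p = 0.0501). Rps4x, the X-linked copy of an essential small subunit protein, read 11859.6, 13522 and 11929.5 in wild type and 8934, 9872 and 10828 in transgenic tissue, also without overlap (log2 −0.33, SE 0.10, adjusted p = 0.0638). Rps14, whose loss from one human chromosome contributes to the anaemia of the 5q deletion syndrome, had a log2 difference of −0.19 (adjusted p = 0.145). In Rps6, the substrate of the S6 kinases downstream of mTOR, the values were 6265, 7992 and 7992 in wild type and 5088, 6803 and 7736 in transgenic tissue. Here the groups overlapped, since transgenic arrays 2 and 3 lay above wild type array 1 while transgenic array 1 was the lowest (log2 −0.19, SE 0.16, adjusted p = 0.472).

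Among large subunit genes outside the stalk 13 of 28 tested fell and 0 rose, beside 8.11% and 4.96% of all features. Their median log2 change was −0.39. Rpl12, which sits at the base of the stalk where translation factors bind, read 7608, 9263 and 7243 on wild type arrays 1, 2 and 3 and 4000.2, 5088 and 5328 on transgenic arrays 1, 2 and 3. Every transgenic value lay below every wild type value, with transgenic array 1 the lowest and wild type array 2 the highest. The mean went from 8038 ± 1076 (SD, n = 3) to 4805 ± 707 (SD, n = 3), a 1.68-fold fall (log2 −0.74, SE 0.14, adjusted p = 0.0181). Rpl36a, an X-linked gene for a protein near the tRNA exit site, read 3381, 3696 and 3055 in wild type and 2186, 2385 and 1934 in transgenic tissue and fell 1.56-fold (log2 −0.64, SE 0.11, adjusted p = 0.0165). In contrast to Rpl12, its lowest value was on transgenic array 3. Rpl19, whose long helix reaches across to the small subunit, read 2179, 2565 and 2129.9 in wild type and 1419, 1596 and 1546 in transgenic tissue. It fell 1.5-fold (log2 −0.59, SE 0.10, adjusted p = 0.0163) and kept its call in all but 1 of the fits that leave out an array, the fit without transgenic array 2.

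Rpl39 and Rpl4, which line the tunnel through which the new peptide leaves, each fell 1.41-fold. Rpl39, also X-linked, read 7926, 9149 and 7608 in wild type and 5608, 6075 and 5806 in transgenic tissue. Rpl4, a dimmer probe, read 604, 655 and 541 in wild type and 398, 421 and 460.4 in transgenic tissue, so both lacked overlap. Rpl28, Rpl34, Rpl27 and Rpl32 fell by 0.55, 0.51, 0.47 and 0.40 on the log2 scale. The remaining large subunit genes that fell were Rpl13a (log2 −0.40), which in human cells also takes part in an interferon-driven block of translation, Rpl37 (−0.40), Rpl10a (−0.37) and Rpl24 (−0.33), a protein of a bridge between the subunits. Rpl13a, Rpl37, Rpl10a and Rpl24, like Rps10, Rps13 and Rps24, are named after their values were seen.

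The stalk proteins, which recruit elongation factors to the ribosome, gave differences that did not pass in limma, and 0 of 3 had an unadjusted p under 0.05. Rplp1 read 22908, 22274 and 23331 in wild type and 22732, 22732 and 21748 in transgenic tissue, with overlapping groups and a log2 difference of −0.03 (SE 0.08, adjusted p = 0.847). Rplp2 read 15907, 16487 and 13522 in wild type and 13383, 14288 and 10746 in transgenic tissue, where transgenic array 2 lay above wild type array 3 (log2 −0.26, SE 0.13, adjusted p = 0.204). Rplp0, the base of the stalk and a common reference gene in quantitative PCR, had a dim probe that read 171, 190.1 and 154 in wild type and 143, 153 and 147 in transgenic tissue. Its groups did not overlap, but the difference did not pass (log2 −0.21, SE 0.10, adjusted p = 0.186).

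Probe intensities of many members lay near the top of the scale, where a change can be understated. The highest intensity on every array was 25166, since quantile normalization gives all arrays the same set of values. That maximum need not be the ceiling of the scanner, and the files used hold no saturation marks for these arrays. The Rplp1, Rpl41 and Rps29 probes had the highest means, 22621, 21428 and 20804, at 89.9%, 85.1% and 82.7% of that intensity. Their log2 differences were −0.03, −0.10 and −0.22, and none passed. Over the 14 members with a mean above 12583, which is 50% of the highest intensity, the median log2 change was −0.24 and 2 fell. Between 1000 and that level the median was −0.41 and 16 of 29 fell. Under 1000, a set that includes Rpl3l and Rps4l, it was −0.28, and 2 of 9 fell. Over all features with a mean of 1000 or more, 8.22% fell and the median was 0.03. Shares of all features were not taken within each of these bands, so the contrast between bands is a description only. Whether saturation or the normalization reduced the differences of the brightest probes was not tested.

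**Figure D2:**
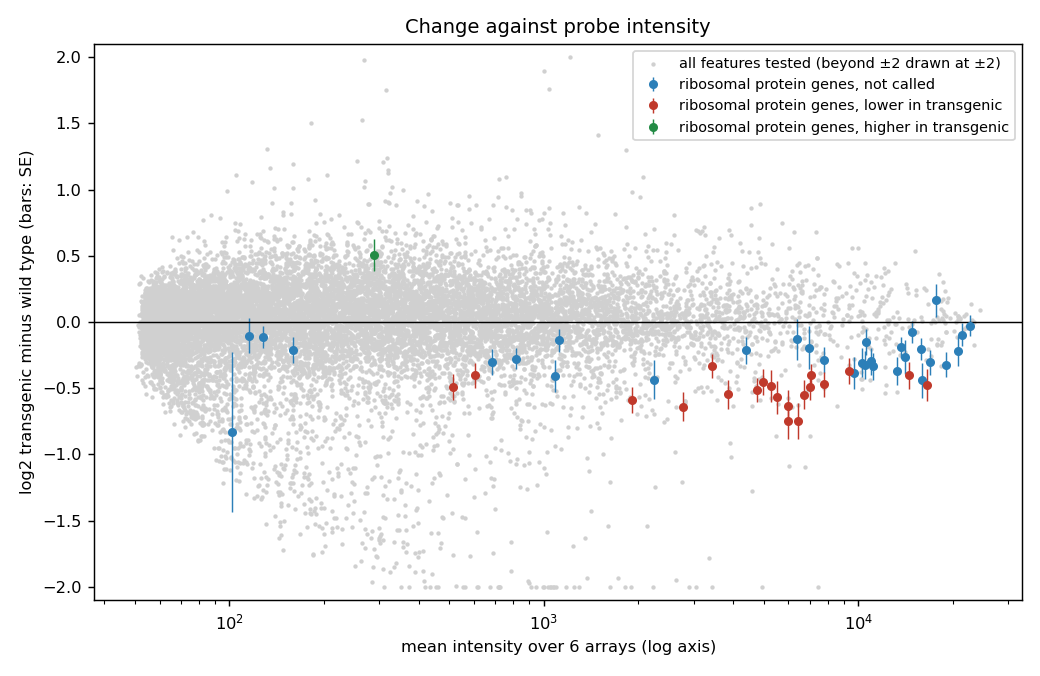
Log2 transgenic minus wild type (vertical axis) against mean intensity over 6 arrays (horizontal log axis) for all features tested (grey) and the ribosomal protein genes (coloured, bars are SE). The genes that fell (red) lie between log2 −0.33 and −0.75, and the probes of highest intensity lie nearer to 0.

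Paralogs and copies of ribosomal protein genes gave differing values, and of these Rps4l alone passed. Rps4l, listed in RefSeq as a transcribed pseudogene related to Rps4x, was the member that rose. It read 248, 202 and 269 on wild type arrays 1, 2 and 3 and 351, 355 and 311 on transgenic arrays 1, 2 and 3, so all transgenic values lay above all wild type values (1.42-fold higher, log2 0.51, SE 0.12, adjusted p = 0.0325). Rps4x itself had a log2 difference of −0.33, and whether the Rps4l probe also binds other transcripts was not examined. Rpl3l, the skeletal and heart muscle counterpart of Rpl3, read 57.7, 331 and 52.1 in wild type and 55.2, 63.6 and 50.6 in transgenic tissue. It was clearly above background on wild type array 2 alone, and without that array its log2 difference was 0.04 in place of −0.83 (adjusted p = 0.394 with all 6). Skeletal muscle markers moved with it: Acta1, skeletal muscle actin, read 365, 4713 and 61.3 in wild type and 328, 389 and 158 in transgenic tissue, and the summed intensity of 10 measured muscle markers ran from 782 to 19345 in wild type and from 825 to 1703 in transgenic tissue. Of 14 listed muscle markers 13 were on the array, and Myh4, Myh1 and Pygm lay near background. Rpl3, the widely expressed partner, read 10798, 11566 and 10985 in wild type and 9227, 9629 and 11270.4 in transgenic tissue and did not pass (log2 −0.15, SE 0.10, adjusted p = 0.337). Rps27l, a paralog of Rps27 induced by p53, read 7500.5, 6024 and 6412 in wild type and 7017, 6662 and 4713 in transgenic tissue, with overlapping groups (adjusted p = 0.622). Rpl39l, a testis-enriched copy of Rpl39, stayed near background.

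Of 15 members with more than 1 probe above background, 5 had probes of opposite sign: Rpl21, Rpl23, Rpl27a, Rpl29 and Rps19. In Rpl21, Rpl27a and Rpl29 the discordant probe was dim, with intensities between 46.1 and 103. The brightest Rpl21 probe was itself dim, between 119 and 142. For Rpl23, a protein that can bind the p53 regulator Mdm2, the brightest probe read 15226, 15226 and 19558 in wild type and 16641, 19079 and 20073 in transgenic tissue so that it was the one tested member besides Rps4l with a higher transgenic mean (log2 0.16). Its second probe read 10135, 11646 and 10330.0 in wild type and 8466, 9036 and 9629 in transgenic tissue, a log2 difference of −0.24 without overlap. Neither passed when all probes were tested separately (adjusted p = 0.414 and 0.121 in limma). For Rps19 the brightest probe was lower and the dimmer one, at 459 in wild type and 626 in transgenic tissue, had a log2 difference of 0.45 (adjusted p = 0.0924), while the brightest probe passed in that fit (adjusted p = 0.0481). Rpl31, a member named after its values were seen, did not pass on its brightest probe (log2 −0.29), and its other 2 probes fell with all probes tested (−0.63 and −0.46, adjusted p = 0.0141 and 0.0181). Some members that fell also had probes that did not pass in limma with all probes tested. The second Rps3 probe read 1392.5, 1555 and 1358 in wild type and 930, 1140 and 1590 in transgenic tissue (log2 −0.27, adjusted p = 0.337). The next brightest Rps24 probe had a log2 difference of −0.02 (adjusted p = 0.937), and a dimmer one fell (−0.41, adjusted p = 0.0237). The second probes of Rps13 (−0.37) and Rpl28 (−0.13) did not pass. Ribosomal protein genes have many processed pseudogenes of near-identical sequence, and binding of these probes to such copies was not examined.

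Rpl6, Rpl14, Rpl17, Rpl39l, Rps20, Rps23 and Rpsa were not tested. All of their probes lay near background, and the brightest probe of each read between 41.2 and 58 on every array, against a background level of 47.6. Apart from Rpl39l these genes encode parts of every cytosolic ribosome, and such readings cannot tell a weakly expressed gene from a poor probe. Ribosomal proteins whose symbols fall outside the rule are given with the related genes.

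The order of the arrays was then set beside the lymphocyte content of each sample. Each list was scored on each array by averaging the log2 deviations of its measured genes from their 6-array means. For the 52 ribosomal protein genes it was 0.11, 0.29 and 0.10 on wild type arrays 1, 2 and 3 and −0.22, −0.10 and −0.19 on transgenic arrays 1, 2 and 3. For 29 measured markers of T, NK, B and plasma cells it was 0.45, 1.12 and 0.68 and then −1.44, −0.47 and −0.35. Wild type array 2 was the highest and transgenic array 1 the lowest on both scores, and neither score overlapped between groups. The order differed within the transgenic group, where array 3 had the highest lymphocyte score but a ribosomal score close to that of array 1. In wild type tissue, arrays 1 and 3 had nearly the same ribosomal score and lymphocyte scores that differed by more. For 11 adipocyte markers the score was −0.10, −0.35 and −0.14 in wild type and 0.23, 0.17 and 0.18 in transgenic tissue. It was thus lowest on wild type array 2 and highest on transgenic array 1, without overlap between groups. Its order was the reverse of the ribosomal one in transgenic tissue, but not for wild type arrays 1 and 3. The skeletal muscle score was 3.09 on wild type array 2 and below 0 on every other array. With 3 arrays a group, a relation within groups could not be tested.

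Lymphocyte markers moved with the ribosomal protein genes between the groups. Of 39 listed T, NK, B and plasma cell markers 34 were on the array and 29 lay above background, and Cd5, Cd8a, Pax5, Jchain and Cr2 were near background. Of these 29, 26 fell (89.7%, beside 8.11% of all features), and the median log2 change was −1.67. Their summed intensity ran from 16608 to 27649 in wild type and from 4836 to 9356 in transgenic tissue. Cd3g, a chain of the T cell receptor complex, read 1251, 2657 and 1741 in wild type and 133, 531 and 774 in transgenic tissue, without overlap. Fcmr, a receptor for IgM on B cells, read 1347, 2422 and 1482 in wild type and 147, 489 and 414 in transgenic tissue, again without overlap. Cd8b1, the brightest of the T cell probes, had a log2 difference of −0.09 and did not pass. The summed intensity of the tested ribosomal protein probes ran from 450092 to 489159 and from 370479 to 397235. With the lymphocyte score as a covariate in limma, the members' median log2 change was −0.18 beside −0.01 for all features, and 41 of 52 were below 0. No member and none of the 15237 features (0%) passed in that fit, and 7 members and 810 features had an unadjusted p under 0.05. The score separates the groups completely, and the median SE of the members rose from 0.10 to 0.20, so genotype and lymphocyte content cannot be told apart here. In bulk tissue, fewer cells of a type and less RNA per cell cannot be told apart either.

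Adipocyte markers ran the other way. All 11 adipocyte markers on the array lay above background, and 6 rose, beside 4.96% of all features. Their summed intensity ran from 69800.3 to 76248 in wild type and from 84694 to 88548 in transgenic tissue. None of 10 macrophage markers or 7 fibroblast markers passed in limma, with 6 and 1 at an unadjusted p under 0.05. Cisd1 itself read 1035, 773 and 937 in wild type and 1090.5, 1106 and 1060.2 in transgenic tissue on its one probe (log2 0.26, SE 0.11, adjusted p = 0.164), and the labels do not say whether that probe reads the transgene's RNA. Of 9 endothelial markers 1 rose, beside 4.96% of all features. The part of any of these cell types in the ribosomal result was not tested.

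**Figure D3:**
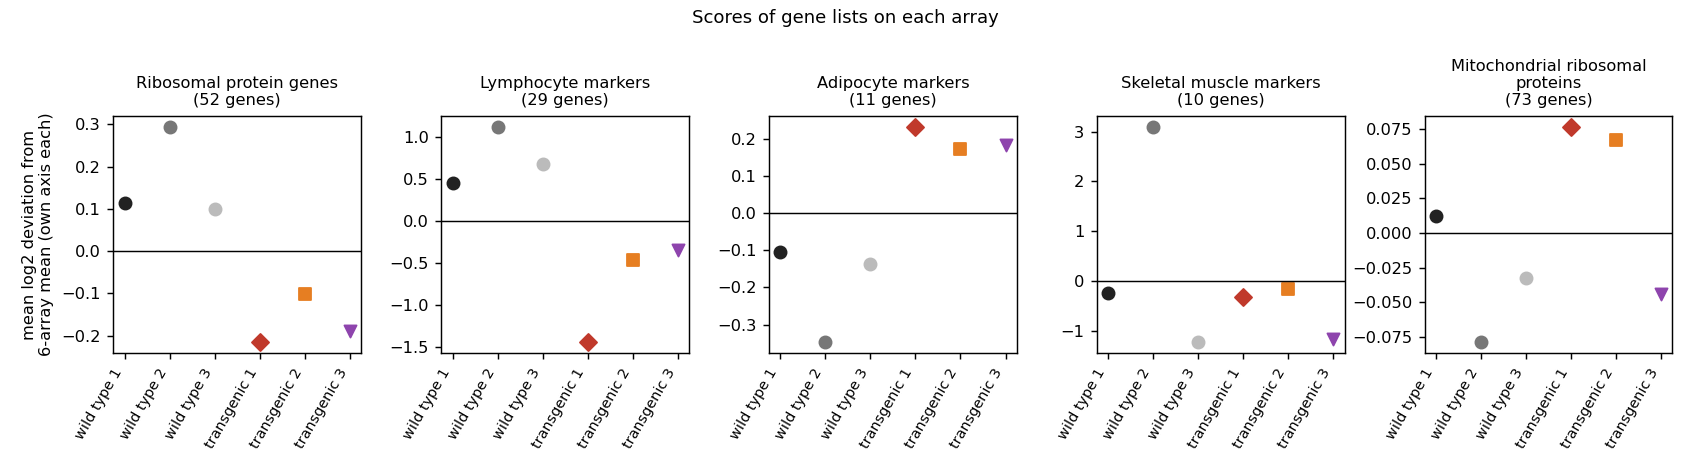
Mean log2 deviation from the 6-array mean (vertical axis, scaled separately in each panel) of 5 gene lists on each array (1 point an array). The ribosomal protein score lies between 0.10 and 0.29 on the wild type arrays and between −0.22 and −0.10 on the transgenic arrays, with the lymphocyte markers in the same direction and the adipocyte markers in the opposite one.

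Individual members did not all follow the same array. In 43 of 52 members the wild type maximum fell on array 2, a count that was not taken over all features. In transgenic tissue, 25 members were lowest on array 1, 25 on array 3 and 2 on array 2. The first set averaged −0.47, −0.31 and −0.25 on transgenic arrays 1, 2 and 3, as log2 deviation from the wild type mean. Members lowest on array 3 averaged −0.30, −0.22 and −0.47. Since the sets were formed from these values and were not counted over all features, the contrast between arrays 1 and 3 is a description only. Both sets averaged below the wild type mean on all 3 transgenic arrays. The first set held Rpl3, Rpl4, Rpl12, Rpl19, Rps3, Rps4x, Rps6 and Rps16 among others, and the second held Rpl34, Rpl36a, Rpl37, Rpl38, Rps21, Rps26 and Rps29 among others, examples chosen after the values were seen.

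Other genes of ribosome production and translation were examined from lists chosen with earlier results of these data known. Of 8 ribosomal proteins outside the symbol rule, 3 were measured. None passed in limma, although 2 had an unadjusted p under 0.05. Rps3a1 and Rpl36al had log2 differences of −0.39 and −0.22, and Rpl7l1, a nucleolar relative of Rpl7, 0.09. Of elongation factors and other genes with a TOP tract 2 of 17 fell and 0 rose, and the median log2 change was −0.09. The share that fell was 11.8%, beside 8.11% of all features. Npm1, nucleophosmin, a chaperone of ribosome assembly in the nucleolus, read 4713, 5177 and 4301 in wild type and 3273, 3379 and 3715 in transgenic tissue, and its groups did not overlap (log2 −0.45, SE 0.10, adjusted p = 0.0256). Eef1d, a subunit of the elongation factor exchange complex, fell by 0.31 on the log2 scale, and Eef1b2 of the same complex had a difference of −0.49 that did not pass (adjusted p = 0.0623). Nap1l1 and Eif3f had differences of −0.35 and −0.23, which did not pass.

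Of initiation factors 0 of 21 fell and 0 rose, with a median of 0.02 and 2 at an unadjusted p under 0.05 in limma. Those of smallest p were Eif2b1 (0.22) and Eif3c (0.27). Over all features 8.11% fell and 4.96% rose. Among ribosome biogenesis genes 3 of 30 fell (10%) and 1 rose, with a median of −0.12. Nop58, a core protein of the box C/D particles that methylate ribosomal RNA, read 582, 630.3 and 528 in wild type and 357, 380.3 and 408 in transgenic tissue and fell (log2 −0.60, SE 0.10, adjusted p = 0.0157). Gar1, of the box H/ACA particles, and Rrp1b, a nucleolar protein, fell by 0.45 and 0.39. Tsr1, a maturation factor of the small subunit, rose by 0.51. For RNA polymerase I, which transcribes ribosomal RNA, 2 of 12 fell (16.7%) and 0 rose, with a median of −0.15. The genes that fell were Znrd1, a polymerase subunit (log2 −0.37), and Ubtf, its upstream binding factor (−0.33). Among regulators of ribosomal protein synthesis 1 of 18 fell (5.56%, beside 8.11% of all features) and 0 rose. Eif4ebp2, an mTOR target that restrains cap-dependent initiation, read 916, 944 and 805 in wild type and 669, 641 and 544 in transgenic tissue and fell (log2 −0.52, SE 0.11, adjusted p = 0.022). Pdcd4, an inhibitor of the helicase Eif4a1, had a difference of −0.40 that did not pass (adjusted p = 0.0908).

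Proteins of the mitochondrial ribosome, a separate machine for the proteins encoded by mitochondrial DNA, were read by 73 tested genes. In limma 0 fell and 2 rose, beside 8.11% and 4.96% of all features. In 10 limma's unadjusted p was under 0.05, and 24 had a log2 difference below 0. Their median log2 change was 0.07. Mrpl48 and Mrpl11 rose by 0.37 and 0.39. The genes of next smallest p, Mrpl18 and Mrpl27, had differences of 0.27 and 0.30, which did not pass. The difference between cytosolic and mitochondrial ribosomal genes was not tested.

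**Figure D4:**
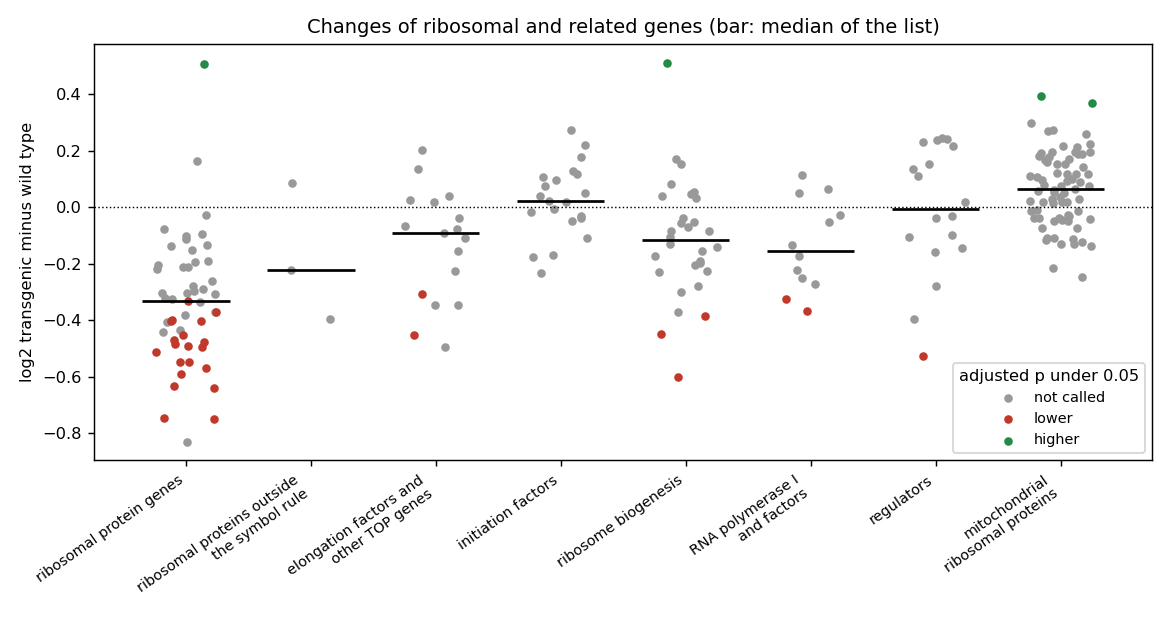
Log2 transgenic minus wild type of each tested gene (1 point a gene, spread sideways for clarity) in 8 lists, coloured by call, with a bar at each list's median. The median is −0.33 for cytosolic ribosomal protein genes, −0.12 for ribosome biogenesis and 0.07 for mitochondrial ribosomal proteins.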

How the data were processed

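Biotin-labelled cRNA was hybridised to Illumina bead arrays, per the labels' protocols. The deposited table holds probe intensities on a linear scale. The sources used here do not name the software that normalized them. The sorted values of the 6 arrays differ by at most 0.157, so they are quantile-normalized, which hides shifts shared by most genes, and the lowest intensity, 32.4, shows that background was not subtracted, so folds of dim genes are understated. Scanner output was not used, because its 24 columns of per-array values match no sample's label. Log2 intensities were analysed. The background level was the mode of all values (47.6), and probes above 55.1 (the mode plus 1.6 times the spread below it, in log2) on at least 3 of 6 arrays were kept, 22483 of 45281 (49.7%). The brightest kept probe stood for each gene, and probes without a single gene were tested unnamed, giving 15237 features. Symbols come from the platform annotation, which can be old: 34885 probes have 1 gene, 18 several and 10378 none. The test was lmFit and eBayes of limma 3.58.1 (R 4.3.3) without covariates, with Benjamini-Hochberg adjustment over all features. It was also run on simulated data with independent noise, a check of the code that says nothing about effects shared across an array. Array numbers are the replicate numbers of the labels. The members, lists and tests were chosen with earlier results of these data known. Genes were named by a rule: the members of smallest p, largest change and highest intensity, the stalk, X-linked and disease-linked members, paralogs, members with discordant probes, and the genes of smallest p in each related list. Same-numbered arrays deviated from their group means with correlations of 0.409, 0.22 and −0.0231, so the numbers were not taken to pair the samples. The number of arrays limits the precision.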

Additional observations from a re-analysis of the deposited data

How the results depend on the processing

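In the 22 alternatives run, the median log2 change of the ribosomal protein genes was below 0, and no named member that passed with all 6 arrays changed sign. Some of these alternatives cannot change a log2 difference: the thresholds of 0.1 and 0.01, the replicate block, and the trend and robust variance without subtraction. With all 6 arrays, 20 members were lower and 1 higher, and 1991 features were called in either direction. Leaving out 1 array gave 0 to 20 lower members, 0 to 1 higher and 0 to 2130 features. In these fits 0% to 8.58% of all features were lower, beside 8.11% with all 6 arrays. The members' median ran from −0.37 to −0.28. Without wild type array 2 and transgenic array 1 together, 0 members fell, 0 rose (24 at an unadjusted p under 0.05) and 318 features passed (1.95% of all features lower). Subtracting the background level left 0 lower and 0 higher members (33 at an unadjusted p under 0.05) and 235 features, with a median of −0.34 and a median SE of 0.13 in place of 0.10. The same subtraction with an intensity trend and robust variance, chosen after seeing the data, gave 25 lower and 1 higher members and 1738 features. Of all features 7% were lower in that fit. The members' median SE was 0.10, so the count depends on how the variance is shared between features. The lymphocyte covariate gave 0 lower and 0 higher members, 0 features and a median of −0.18, and the muscle covariate 2, 0 and 442 with a median of −0.29; the cause was not tested. At an adjusted p under 0.1, 34 members were lower, beside 12.2% of all features lower, and 3439 features passed in either direction; under 0.01 the counts were 0 lower, 0 higher and 0 features in limma, with 37 members and 4739 features at an unadjusted p under 0.05. With the replicate block 25 members fell, beside 9.59% of all features lower, 1 rose and 2370 features passed in either direction. The labels' numbers were not taken to pair the arrays. The other alternatives (an added offset, the filter on all 6 arrays or none, the mean of a gene's probes, all probes separately, trend and robust variance without subtraction, array weights) gave 19 to 27 lower members, beside 4.12% to 10.4% of all features lower.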
